A study of Drosophila melanogaster with 32 samples.

Results

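Smurfs of 40 days were compared with Smurfs of 20 days in RNA-Seq of whole *Drosophila melanogaster* females. A Smurf is a fly that turns blue throughout its body after feeding on a blue dye that normally stays in the gut. The samples were chosen by their labels alone, as every 40-day Smurf sample (6) and every 20-day Smurf sample (4), which makes 10 of the 32 samples of the series. All flies were mated females of the Drs-GFP line, a reporter line of the antimicrobial peptide gene Drosomycin, all were fed FD&C #1 blue food dye, and each sample was a pool of 8 flies. The other samples were 30-day Smurfs (6), and non-Smurfs of 40 days (6), 30 days (6) and 20 days (4), which carried the same genotype and were fed the same dye. At 40 days few flies of the line were still alive, and at 20 days most were. The 40-day Smurfs were collected within 5 hours of turning blue (5h-c7 and 5h-c8), within 1 day (1d-p, 1d-q and 1d-r) or at an unknown, mixed time (M-16). The 20-day Smurfs were collected within 1 day (1d-d, 1d-e and 1d-f) or at a mixed time (M-4). No 20-day Smurf was collected at 5 hours, so the age of the 2 samples 5h-c7 and 5h-c8 and their early collection cannot be told apart.

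The Smurf phenotype marks flies whose intestine no longer keeps the dye in its lumen. Such flies die within days, their number grows as a population ages, and the state is known for raised immune and stress gene expression together with lower expression of digestive and metabolic genes. The age of a fly at the moment of this transition varies, and comparing old with young Smurfs asks what chronological age adds once a fly is in that state.

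The total count per sample, which sets the precision of every value, was between 12164198 and 19918153 in 40-day Smurfs (median 15803168) and between 13423868 and 20753029 in 20-day Smurfs (median 17708582). Values per sample are CPM (counts scaled to a common library size after TMM normalisation), a scale that removes differences in depth but not in transcript length, so levels are not compared between genes. Markers of the labelled tissue were present, with Yp2, a yolk protein of females, between 582 and 5640 CPM in 40-day Smurfs and between 453 and 1337 CPM in 20-day Smurfs. Of 14 genes of the male reproductive tract only bam, which the ovary also uses, had enough counts to be tested. Some libraries stood apart. On the first component of all 32 samples (45.5% of the variance), 3 libraries of 40-day Smurfs, 5h-c7 at −8.63, 5h-c8 at −8.16 and 1d-p at −6.03, lay inside the range of the 40-day non-Smurfs (−10.03 to −1.88), while 1d-r, 1d-q and M-16 lay at 15.54, 13.43 and 2.84 and the 20-day Smurfs between 13.44 and 21.41. Over all 10182 genes tested the order differed. The median distance on log2(CPM + 1) to the mean of the 40-day non-Smurfs was 0.075 in 1d-p, 0.100 in M-16, 0.105 in 5h-c7 and 0.165 in 5h-c8. It was 0.181 in 1d-r and 0.210 in 1d-q, and 0.123 to 0.152 from the 20-day Smurfs to the 20-day non-Smurfs. Mitochondrial genes took 9.59% of the counts of the 40-day sample 1d-q, against 4.39% to 5.85% in the other 40-day Smurfs and 4.40% to 5.18% in the 20-day Smurfs.

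The ages lay apart on the first component of the 10 Smurf samples (PCA plotted by sample name). PC1, which held 42.5% of their variance, was 8.93 ± 10.9 in 40-day Smurfs (SD, n = 6) and −13.4 ± 3.69 in 20-day Smurfs (SD, n = 4). The difference of 22.3 was larger than the spread within the groups (exact permutation test over 210 arrangements, two-sided p = 0.0143). On this axis 1d-q at −5.33 and 1d-r at 0.40 were the 40-day samples closest to the 20-day ones, and 5h-c7 at 19.1 and 5h-c8 at 22.5 were the farthest. Without the 5-hour samples the difference was 17.8 (exact permutation test, p = 0.0286). On log2 CPM in place of vst values PC1 did not separate the ages (difference 22.8, exact permutation test, p = 0.133) and PC2 did (exact permutation test, p = 0.00952).

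**Figure D1:**
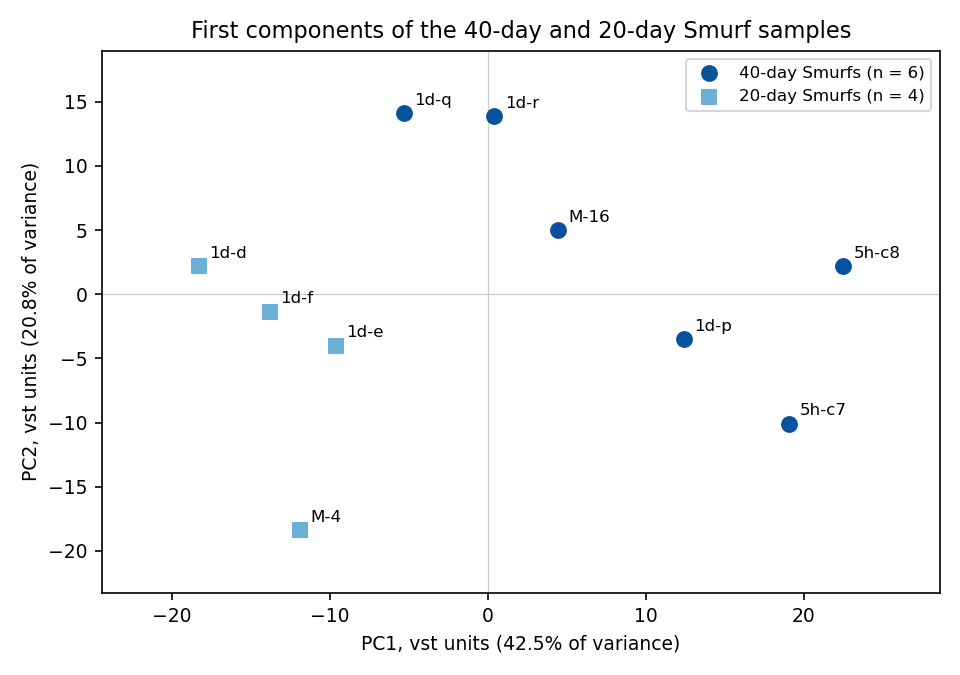
First (horizontal, vst units) and second (vertical, vst units) principal components of the 6 samples of 40-day Smurfs (dark circles) and 4 samples of 20-day Smurfs (light squares), each point a pool of 8 flies with its sample name. PC1 runs from −18.3 to −9.62 in 20-day Smurfs and from −5.33 to 22.5 in 40-day Smurfs, so the groups do not overlap on it.

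The change with age was broad and mostly small on the lower side, and larger on the higher side. Of 10182 genes tested, 1440 (14.1%) were called between 40-day and 20-day Smurfs at an edgeR adjusted p below 0.05. The 872 genes that rose (8.56% of those tested) had a median log2FC of 0.81 and included families of detoxification, digestion, metal binding and lipid metabolism. The 568 genes that fell (5.58%) had a median log2FC of −0.28 and included genes of DNA replication, chromatin and transcription. A log2FC beyond 1 was reached by 303 genes that rose and by 15 that fell. The median over all genes tested was −0.01. All 40-day Smurfs lay above all 20-day Smurfs for 860 genes (8.45%) and below them for 587 (5.77%). The balance of the calls depended on scaling, since genes that rose made up 60.6% of the calls after TMM and 72.1% after RLE size factors, with which 933 genes rose and 361 fell. Of the called genes, 701 overlap another annotated gene or element, and the strand setting of the counting was not given in the sources used here, so reads of such neighbours may be mixed. In whole flies, fewer cells of a type and less RNA per cell cannot be told apart.

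How many genes were called depended strongly on the samples. The count was 126 without the 20-day Smurf 1d-d, 296 without M-4, 686 without 1d-f and 742 without 1d-e, which are the 4 samples of the smaller group. It was 752 without the 40-day sample 5h-c8 and 2585 without 1d-q. Without both 5-hour samples it was 483 (448 rose and 35 fell), with collection time as a term of the model 246 (230 rose and 16 fell), without the mixed samples 484, and with 1-day samples only, 3 against 3, it was 25 (24 rose and 1 fell), where 1868 genes had an unadjusted p below 0.05. Without 5h-c7, 5h-c8 and 1d-p it was 172 (167 rose and 5 fell). In each of these fits every gene shared with the fit of all 10 samples had the same sign, and 458 were shared without the 5-hour samples and 162 without 5h-c7, 5h-c8 and 1d-p. Equal signs were nearly fixed in advance there, because each fit reused samples of the full fit and both had to call the gene. A set of 117 genes was called in all 10 fits that left out 1 sample, 111 higher and 6 lower in 40-day Smurfs. Of 112 called genes named in the text, raptor not included, 78 lost their call without 1d-d and 61 without M-4, while 1 did without the 40-day sample 1d-q.

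**Figure D2:**
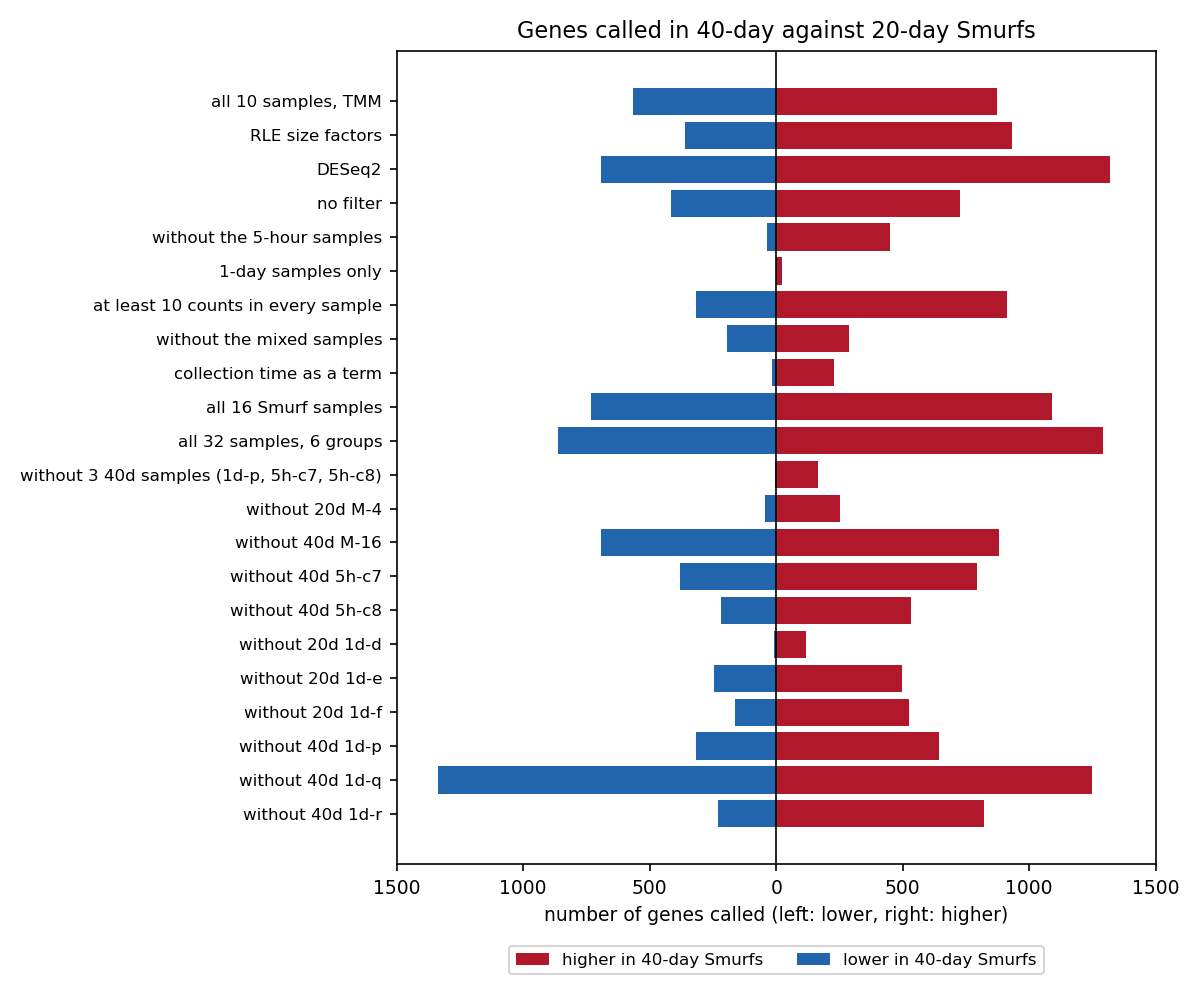
Number of genes called higher (right, red) and lower (left, blue) in 40-day against 20-day Smurfs at an edgeR adjusted p below 0.05, one row for each choice of samples or settings. The bars of all 10 samples stand at 872 and 568, those without the 20-day sample 1d-d are the shortest of the fits that left out 1 sample (126 in all), and the lower side shrinks to 35 genes without the 5-hour samples.

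Scp1, a sarcoplasmic calcium-binding protein gene on chromosome 2R (2932595 to 2968052, positions in BDGP6.54 here and for the genes that follow), was the gene with the smallest adjusted p and the strongest decrease of the named rule. It had 10.1 to 14.1 CPM in 40-day Smurfs (median 11.6) and 48.7, 39.1, 46.5 and 39.7 CPM in 20-day Smurfs. All 40-day samples were far below all 20-day samples, 1d-p and the 5-hour samples included. The log2FC was −1.89 ± 0.11 (SE, edgeR adjusted p = 2.94e-05), and the gene was called in all 10 leave-one-out fits, without the 5-hour samples (adjusted p = 0.000465) and with 1-day samples only (adjusted p = 0.0228). In 30-day Smurfs it lay between 11.9 and 19.7 CPM, close to the 40-day level. It fell likewise in non-Smurfs, which had 8.41 to 13.4 CPM at 40 days and 32.9 to 46.0 CPM at 20 days (edgeR adjusted p = 0.000221), and the age difference did not pass the test of differing between Smurfs and non-Smurfs (edgeR adjusted p = 0.902).

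All 5 metallothionein genes tested rose. Metallothioneins are small cysteine-rich proteins that bind copper, zinc and cadmium. The median log2FC of the 5 was 2.87, against −0.01 over all genes, and their summed level had a median of 704 CPM in 40-day Smurfs (lowest 565) and of 317 CPM in 20-day Smurfs (highest 339). The list was added after the values were seen. MtnC, on chromosome 3R (20360308 to 20360634), had 3.49, 32.9, 14.3, 6.11, 9.50 and 16.1 CPM in the 40-day samples M-16, 5h-c7, 5h-c8, 1d-p, 1d-q and 1d-r, against 0.456, 1.22, 1.57 and 0.369 CPM in 20-day Smurfs. Every 40-day sample was above every 20-day sample, and 5h-c7 was the highest (log2FC 3.89 ± 0.70, edgeR adjusted p = 0.0139). MtnA had 534 to 1053 CPM in 40-day Smurfs (median 639) and 325, 295, 330 and 202 CPM in 20-day Smurfs, again without overlap (log2FC 1.26 ± 0.22, edgeR adjusted p = 0.0125), and was the only member called in all 10 leave-one-out fits. MtnD rose with a log2FC of 3.40, MtnB with 2.87 and MtnE with 2.78, but the groups overlapped for these 3 genes, of which the 40-day sample M-16 had 2.82, 3.62 and 1.68 CPM. The call of MtnC ended without the 20-day sample 1d-d (edgeR adjusted p = 0.0511), when MtnA alone remained, and MtnA and MtnC were the 2 members called without 5h-c7, 5h-c8 and 1d-p. In non-Smurfs of 40 against 20 days none of the 5 was called, with a median log2FC of 0.88.

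A mucin gene, a chitin deacetylase-like gene and several genes of unnamed function were low in 20-day Smurfs and many-fold higher in 40-day Smurfs. Muc68D, a mucin gene on chromosome 3L (11767299 to 11772157), had 285 to 507 CPM in 40-day Smurfs (median 342) and 17.4, 83.8, 66.5 and 15.8 CPM in 20-day Smurfs. No sample of one group reached the other (log2FC 2.96 ± 0.49, edgeR adjusted p = 0.0101). Cda9, a chitin deacetylase-like gene on chromosome 2R (17128480 to 17130334), had 7.33 to 21.8 CPM in 40-day Smurfs (median 10.6) and 0.171, 1.65, 1.62 and 0.897 CPM in 20-day Smurfs. The separation was again complete (log2FC 3.53 ± 0.54, edgeR adjusted p = 0.00952). Both were called in all 10 leave-one-out fits, although Muc68D was not called without 5h-c7, 5h-c8 and 1d-p (edgeR adjusted p = 0.0518). Cda9 also rose in non-Smurfs (log2FC 0.65, edgeR adjusted p = 0.0431). CG3906 rose with a log2FC of 2.69 and was called in all 10 leave-one-out fits, and CG3819 with 3.55 in 9 of them (edgeR adjusted p = 0.0568 without 1d-d). CG14645 (log2FC 2.64) and CG34220 (log2FC 2.85) overlap the genes Skp2 and oys and were called in 6 and 3 of the 10, their calls ending without 1d-d (edgeR adjusted p = 0.0903 and 0.102). In non-Smurfs Muc68D had 350 to 544 CPM at 40 days and 234 to 414 CPM at 20 days, so both ages were above all 20-day Smurfs.

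**Figure D3:**
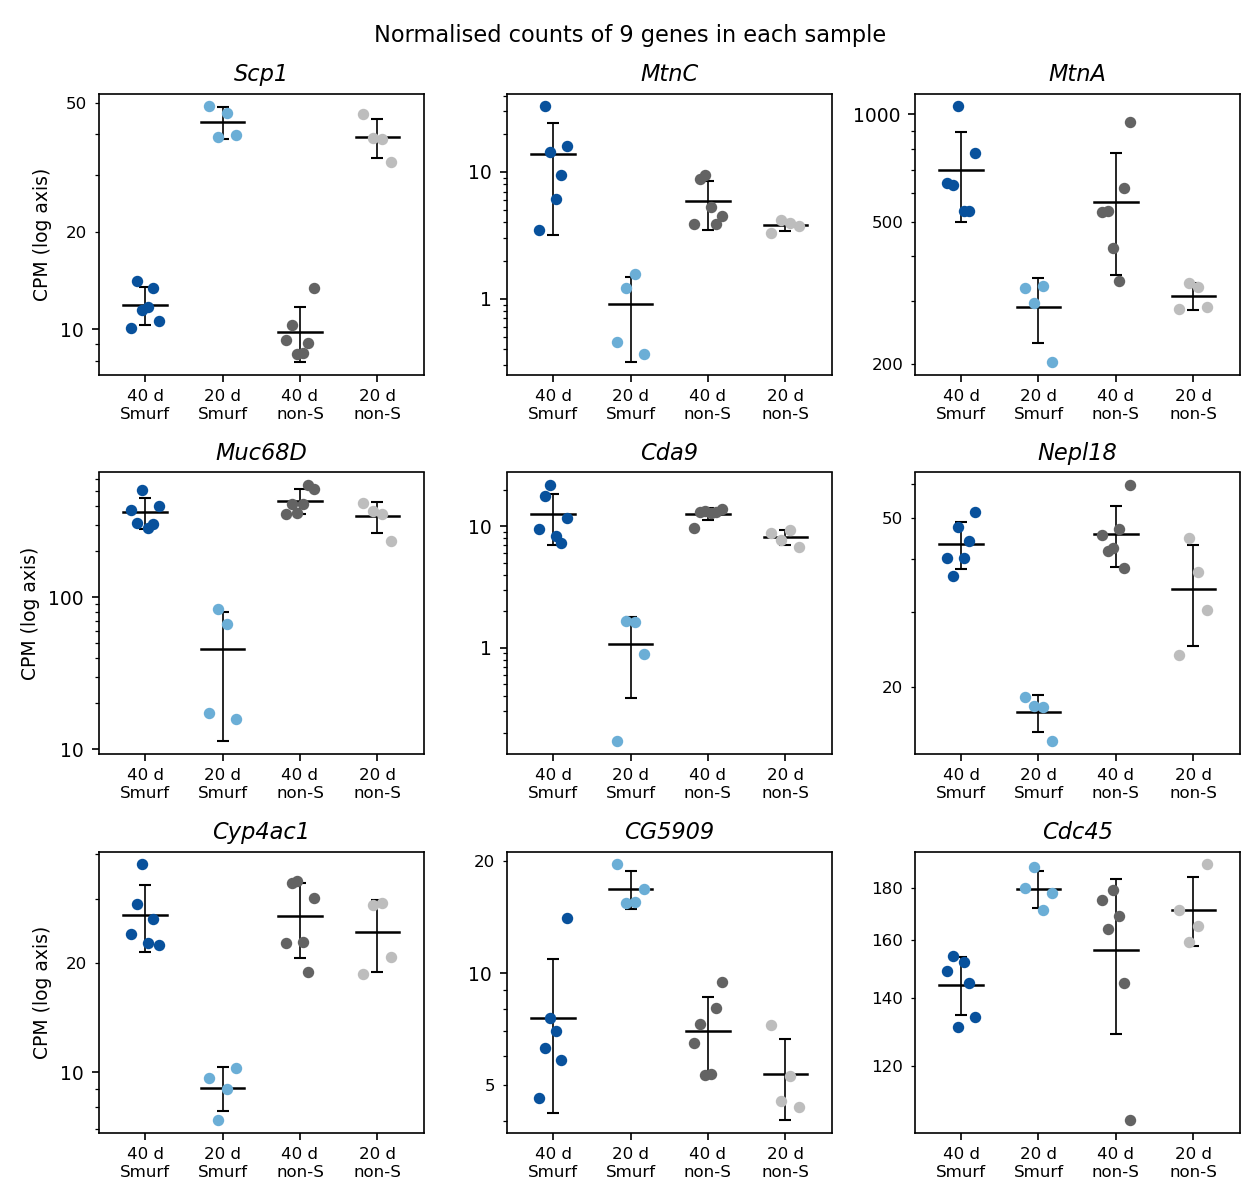
Level of 9 genes in each sample, in CPM on a log axis, for 40-day Smurfs, 20-day Smurfs, 40-day non-Smurfs and 20-day non-Smurfs from left to right, with points for samples, a long bar for the mean and whiskers of 1 SD. Scp1 is low at 40 days in Smurfs and non-Smurfs, Cdc45 is lower in all 40-day than in all 20-day Smurfs, CG5909 is highest in 20-day Smurfs, and the other 6 genes have their lowest mean in 20-day Smurfs.

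A pair of mucin genes was added to the text after their values were seen, since they were among the 117 genes called in all 10 leave-one-out fits. Muc11A had 332 to 417 CPM in 40-day Smurfs and 202, 199, 217 and 239 CPM in 20-day Smurfs (log2FC 0.78 ± 0.08, edgeR adjusted p = 0.00338), and overlaps Ten-a on the same strand. Mur18B had 573 to 894 CPM in 40-day Smurfs and 207, 396, 281 and 445 CPM in 20-day Smurfs (log2FC 1.16 ± 0.21, edgeR adjusted p = 0.0135).

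Cytochrome P450 enzymes oxidise toxins, hormones and lipids. Of 77 of their genes tested, 24 rose and none fell, with a median log2FC of 0.50, and 65 of the 77 had a positive log2FC. Cyp4ac1, on chromosome 2L (5264001 to 5265899), had 22.5 to 37.5 CPM in 40-day Smurfs (median 25.3) and 9.63, 7.39, 8.99 and 10.3 CPM in 20-day Smurfs. The groups were well apart (log2FC 1.56 ± 0.17, edgeR adjusted p = 0.00338), also without 5h-c7, 5h-c8 and 1d-p (adjusted p = 0.00883). Its neighbour Cyp4ac2 rose with the largest log2FC of the family (1.89), and both lie within tkv on its other strand. Cyp12e1 varied little within the groups, with 13.2 to 15.9 CPM in 40-day Smurfs and 7.41, 9.18, 9.13 and 7.76 CPM in 20-day Smurfs (log2FC 0.79, edgeR adjusted p = 0.00814). The lowest log2FC was that of Cyp6a8, at −0.79 (edgeR adjusted p = 0.247), whose 40-day level was 2.68 to 5.90 CPM in 5 samples and 13.7 CPM in 1d-r. The number of P450 genes that rose was 4 without the 20-day sample 1d-d, 13 without M-4, 19 without the 5-hour samples, 13 without 5h-c7, 5h-c8 and 1d-p, and 3 with 1-day samples only. In non-Smurfs 3 of these genes rose at 40 days and 1 fell.

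Other enzymes of detoxification moved less uniformly. Of 29 UDP-glycosyltransferase genes, a list added after the values were seen whose products attach sugars to small molecules, 11 rose and none fell (median log2FC 0.42). Ugt304A1 had 8.15 to 11.6 CPM in 40-day Smurfs (median 8.90) and 4.90, 4.52, 5.32 and 4.91 CPM in 20-day Smurfs, with no overlap (log2FC 0.88 ± 0.13, edgeR adjusted p = 0.00952). Ugt49C1 rose with a log2FC of 1.09 and Ugt37B1, a low gene, with 1.78. The count of the family was 10 without the 5-hour samples, 4 without 5h-c7, 5h-c8 and 1d-p, 4 without M-4, and 1 without 1d-d. Of 33 cytosolic glutathione S-transferase genes, with a median log2FC of 0.09, 4 rose (8.56% of all genes tested did) and none fell. They included GstT4 (log2FC 0.82, called in all 10 leave-one-out fits), GstZ2 (1.22) and GstE12 (0.64), and without M-4 or without 1d-d the call of GstT4 was the only one of these 3 left (edgeR adjusted p of GstZ2 and GstE12 0.0558 to 0.0871). The list had 1 call in each of these fits, 2 without 1d-e and 0 without 5h-c7, 5h-c8 and 1d-p. GstD4, a stress-induced member, had the lowest log2FC of −1.42 (edgeR adjusted p = 0.108).

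Neprilysin-like genes, which are not assigned to digestion here, and genes of digestion differed in how many were called. Of 17 neprilysin-like genes, a list added after the values were seen of putative metallopeptidases related to neprilysin, 11 rose and none fell, with a median log2FC of 1.17. Nepl18, on chromosome 3R (28875621 to 28877805), had 36.5 to 51.6 CPM in 40-day Smurfs (median 42.1) and 18.9, 18.0, 17.9 and 14.9 CPM in 20-day Smurfs. The 40-day samples lay far above the 20-day samples (log2FC 1.30 ± 0.12, edgeR adjusted p = 0.00123). Nepl21 (log2FC 1.36) and Nepl14 (1.90) rose likewise, and 5 of the family were called in all 10 leave-one-out fits. The family count was 5 without 1d-d, 10 without the 5-hour samples and 6 without 5h-c7, 5h-c8 and 1d-p. Nepl18 and Nepl21 overlap CG33203, and Nepl14 overlaps CG7029 and Usp12-46, each on the other strand.

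Of 10 maltase genes, again a list added after the values were seen, whose enzymes split maltose, 7 rose and none fell (median log2FC 1.10). Mal-A6 had 376 to 580 CPM in 40-day Smurfs (median 474) and 101, 274, 176 and 237 CPM in 20-day Smurfs, without overlap (log2FC 1.23 ± 0.25, edgeR adjusted p = 0.0167). It also rose in non-Smurfs (log2FC 1.04, edgeR adjusted p = 0.0434). Mal-A1 rose with a log2FC of 1.16 and Mal-A7 with 1.47, and all 3 were lowest in the 20-day sample M-4. The family count was 4 without the 5-hour samples, without M-4, without 1d-f or without 5h-c8 alone, 3 without 1d-d, and 1 without 1d-e or without the 3 samples 5h-c7, 5h-c8 and 1d-p.

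The endopeptidases of digestion spread more widely. Of 12 trypsin genes, 1 rose (alphaTry, with 692 to 1385 CPM in 40-day Smurfs and 420, 433, 623 and 579 CPM in 20-day Smurfs, log2FC 0.93, a gene with close copies that may share its reads), although all 12 had a positive log2FC (median 0.80). That count, a share near the 8.56% of all genes called higher, was 0 without M-4 or 1d-d and 4 without the 40-day sample 1d-q. None of 16 Jonah protease genes was called by edgeR (median log2FC 0.71, 5 at an unadjusted p below 0.05, and 2 called higher by DESeq2), and 6 were called higher without the 40-day sample 1d-q. Jon99Ci, with the largest log2FC of 2.41 (edgeR adjusted p = 0.0693), had 24.5, 129, 101, 91.3, 12.9 and 71.0 CPM in the 40-day samples M-16, 5h-c7, 5h-c8, 1d-p, 1d-q and 1d-r, and 2.11, 4.66, 35.3 and 10.3 CPM in 20-day Smurfs. The 3 highest of these were the samples inside the range of the 40-day non-Smurfs on the first component of all 32 samples. Without these 3 samples the median log2FC of the Jonah genes was −0.02. In further lists added after the values were seen, 3 of 7 Npc2 genes, of a sterol-binding family, rose (median log2FC 0.38), with Npc2g at 1.38, and 7 of 21 subunits of the vacuolar proton pump (median 0.13), with Vha100-4 at 1.51, a gene that overlaps cona. Without 1d-d neither list had a call, the Npc2 list had none without M-4 or 1d-f either, and the pump had 1 without M-4. The list of markers of gut enterocytes and progenitors held Jon99Ci, and its entries esg and Dl matched no gene. Its markers that matched summed to 3020 to 5120 CPM in 40-day Smurfs and 2040 to 2840 CPM in 20-day Smurfs. Of these 11 markers 2 were called higher (median log2FC 0.75), 1 without M-4 or 1d-d, 7 without 1d-q and 0 without 5h-c7, 5h-c8 and 1d-p. Their part in the results on digestive and detoxification genes was not tested.

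Genes of lipid synthesis rose in part, and those of sugar metabolism mostly were not called. Of 16 genes of fatty acid synthesis, 7 rose and none fell (median log2FC 0.34). The elongase eloF had 88.8 to 110 CPM in 40-day Smurfs (median 93.6) and 46.7, 51.4, 70.1 and 57.4 CPM in 20-day Smurfs, without overlap (log2FC 0.74 ± 0.11, edgeR adjusted p = 0.00952). AcCoAS, the acetyl-CoA synthetase, rose with a log2FC of 0.70, and rose also in non-Smurfs (0.40, edgeR adjusted p = 0.0440). Of the list, 2 genes were called without M-4, 4 without 1d-e, 1d-f or 5h-c8, 3 without the 5-hour samples, and 1 without 1d-d or without 5h-c7, 5h-c8 and 1d-p. In glycolysis and lactate metabolism 10 of 13 genes had a negative log2FC (median −0.14) and 1 rose, the hexokinase Hex-C (log2FC 0.85, called in 6 of the 10 leave-one-out fits), a share below that of all genes, while Ldh had the lowest log2FC of −0.98 without a call. None of 15 genes of the citric acid cycle was called by edgeR or DESeq2 with all 10 samples, and 1 had an unadjusted p below 0.05. In insulin and Tor signalling 1 of 17 genes rose and 1 fell, against 8.56% and 5.58% of all genes tested, and the entry Tor matched no gene. The gene that rose was Ilp6, an insulin-like peptide of the fat body, with 18.6 to 33.5 CPM in 40-day Smurfs and 15.8, 11.0, 13.6 and 12 CPM in 20-day Smurfs (log2FC 0.81, edgeR adjusted p = 0.0205). Its call ended without 1d-d (edgeR adjusted p = 0.0763). The gene that fell was raptor (log2FC −0.33).

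A further 6 metabolic genes were named after their values were seen, as members of the 117 genes called in every leave-one-out fit. They were ry, the xanthine dehydrogenase of purine breakdown (log2FC 1.28), v, the tryptophan dioxygenase (1.21), Hn, the phenylalanine hydroxylase (0.81), fbp, the gluconeogenic fructose-bisphosphatase (0.97), AOX1, an aldehyde oxidase (0.61), and Oatp74D, the importer of ecdysone (1.03). In fbp the 40-day Smurfs had 62.2 to 121 CPM (median 86.7) and the 20-day Smurfs 43.4, 43.7, 44.7 and 45.6 CPM, and the 20-day samples lay close together below all 40-day samples. AOX1 also rose in non-Smurfs (edgeR adjusted p = 0.0444). Oatp74D overlaps the immune gene edin on the same strand.

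Fat body markers moved in the same direction as these genes. Of 9 tested, 3 rose and none fell, with a median log2FC of 0.71, and they summed to 4960 to 22600 CPM in 40-day Smurfs (median 14500) and 3420 to 7030 CPM in 20-day Smurfs. The sum includes the yolk gene Yp2, with 582 to 5640 CPM in 40-day Smurfs and 453 to 1337 CPM in 20-day Smurfs. The list of 4 yolk genes alone summed to medians of 11500 CPM in 40-day Smurfs and 5100 CPM in 20-day Smurfs. The lipoprotein gene apolpp had 1179 to 3099 CPM in 40-day Smurfs (median 1670) and 960, 568, 936 and 612 CPM in 20-day Smurfs, without overlap (log2FC 1.32 ± 0.30, edgeR adjusted p = 0.0234). It lost its call without M-4, 1d-d or 1d-f (edgeR adjusted p = 0.0530 to 0.0873), and the whole list had 0 calls in each of these 3 fits and 6 without 1d-q. Without 5h-c7, 5h-c8 and 1d-p the list also had 0 calls, with a median log2FC of 0.385. The part of this tissue in the metabolic results was not tested.

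Egg-forming genes varied widely within an age, with summed chorion levels of 1.74 to 1520 CPM in 40-day Smurfs, 2.86 to 1210 CPM in 30-day Smurfs and 3.87 to 1170 CPM in 20-day Smurfs. None of 4 yolk genes (median log2FC 1.25), 10 vitelline membrane genes (0.98), 9 chorion genes (0.69) or 13 markers of ovarian follicle cells (0.65) was called by edgeR, and DESeq2 called 2 yolk and 2 chorion genes higher. At an unadjusted p below 0.05 there were 2 yolk, 0 vitelline membrane, 2 chorion and 0 follicle cell genes, and edgeR called 2 yolk genes higher without 1d-q. Yp2 had 4126, 5534 and 5640 CPM in 5h-c7, 5h-c8 and 1d-p, 2245 CPM in M-16, and 582 and 928 CPM in 1d-q and 1d-r (log2FC 1.71, edgeR adjusted p = 0.0899). Without 5h-c7, 5h-c8 and 1d-p the median log2FC of the chorion genes was −3.16 and that of the vitelline membrane genes −3.81, again with 0 calls, so the sign of these medians depended on which 40-day samples entered.

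Immune genes gave no uniform direction. None of 15 antimicrobial peptide genes was called by edgeR (6 had an unadjusted p below 0.05, and DESeq2 called 3 lower), with a median log2FC of −0.88, and their summed level was 1500 to 5080 CPM in 40-day Smurfs (median 1830) and 3080 to 4230 CPM in 20-day Smurfs. CecA1, a cecropin, had 10.6 to 30.6 CPM in 5 of the 40-day samples and 96.5 CPM in 1d-r, against 67.6, 63.2, 115 and 67.0 CPM in 20-day Smurfs (log2FC −1.26, edgeR adjusted p = 0.125). Without 1d-r, 10 of the 15 were called lower in 40-day Smurfs. In non-Smurfs the median log2FC of the list was 2.79, also with 0 calls. Of 12 Bomanin genes, which are targets of Toll, 1 rose, BomS6, with 30.7 to 68.6 CPM in 40-day Smurfs and 25.8, 18.4, 17.7 and 13.3 CPM in 20-day Smurfs (log2FC 1.23, edgeR adjusted p = 0.0161, ended without 1d-d at 0.0633). That share of the list was near the 8.56% of all genes called higher.

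Of 11 peptidoglycan recognition protein genes, 1 fell, PGRP-LB (log2FC −0.40), an amidase that removes the elicitor of Imd signalling, and it was called in 5 of the 10 leave-one-out fits. Of 22 genes of Toll and Imd signalling 3 rose, among them the protease modSP (log2FC 0.63), and 1 fell, the kinase pll (−0.30), and no gene of the list was called without M-4 or without 1d-d. Over all genes tested 8.56% rose and 5.58% fell. In the list of JAK-STAT and Turandot genes 4 of 12 rose and 2 fell. TotC, a stress-induced Turandot peptide, had 46.8 to 225 CPM in 40-day Smurfs (median 94.1) and 46.2, 12.2, 17.4 and 12.9 CPM in 20-day Smurfs, where M-4 nearly reached the lowest 40-day sample (log2FC 2.42 ± 0.57, edgeR adjusted p = 0.0253). TotM rose with a log2FC of 1.99, and both calls ended without 1d-d, 1d-e or 1d-f (edgeR adjusted p = 0.0547 to 0.0903), when no gene of the list was called. The cytokine upd3 had a log2FC of −0.83 without a call (edgeR adjusted p = 0.169), with 18.5 CPM in 1d-r and 4.53 to 7.71 CPM in the other 40-day samples.

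Among the 12 strongest decreases of the named rule, several genes were high in 20-day Smurfs and in the 40-day sample 1d-r. CG5909 had 4.63 to 7.56 CPM in 5 of the 40-day samples and 14.1 CPM in 1d-r, and 19.6, 15.4, 15.5 and 16.8 CPM in 20-day Smurfs (log2FC −1.16 ± 0.26, edgeR adjusted p = 0.0223). Ddc, the dopa decarboxylase of dopamine synthesis, had 15.5 to 71.4 CPM in 40-day Smurfs (median 19.9, highest in 1d-r) and 92.3, 90.8, 95.6 and 60.9 CPM in 20-day Smurfs, so 1d-r overlapped the lowest 20-day sample (log2FC −1.47, edgeR adjusted p = 0.0371). CG6675 (log2FC −1.79), CG15046 (−1.31) and CG9452 (−1.05) fell as well, all with 1d-r as the highest 40-day sample. CG5909, Ddc, CG6675, CG15046 and CG9452 had lower means in non-Smurfs of both ages than in 20-day Smurfs. Mean CPM in 20-day and 40-day Smurfs was 31.9 and 9.27 for CG6675, and 84.9 and 31 for Ddc. In 20-day and 40-day non-Smurfs it was 3.3 and 6.63 for CG6675, and 18.2 and 21 for Ddc. The log2FC of each of these genes was positive in non-Smurfs (0.21 to 1.17), without a call. The call of CG5909 ended without M-4 or 1d-d and that of CG6675 without M-4, 1d-d or 1d-e, while Ddc and CG15046 were called in 3 of the 10 leave-one-out fits and CG9452 in 2. The other decreases, called in 1 to 8 of the 10, were yellow-e of the yellow family (−1.03), CG42711 (−0.93), CG10089 (−0.79), Hakai, a ubiquitin ligase also known from the m6A writer complex (−0.79), snRNA:U12, the RNA of the minor spliceosome (−0.73), and Hml. Hml, a clotting protein of haemocytes, had 14.1 to 52.8 CPM in 40-day Smurfs and 36.7, 73.2, 54.9 and 61.8 CPM in 20-day Smurfs (log2FC −1.18, edgeR adjusted p = 0.0479), and overlapped between the ages. It was called in 1 of 10 leave-one-out fits, and fell also in non-Smurfs (log2FC −1.12, edgeR adjusted p = 0.0275). Of the other haemocyte markers, Pxn rose (log2FC 0.59, called in 1 of 10 leave-one-out fits) in a list of 9 with a median of −0.26.

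Among stress genes, the small heat shock protein gene l(2)efl rose, and the Hsp70 genes were not called. The 7 genes of Hsp70 and Hsp68, which share reads between near-identical copies, all had a negative log2FC (median −1.65) and none was called by edgeR (6 had an unadjusted p below 0.05), while DESeq2 called 4 and edgeR called 4 without 1d-r. Hsp70Bb had 0.84 to 2.48 CPM in 5 of the 40-day samples and 9.59 CPM in 1d-r, and 31.9, 2.44, 16.7 and 2.11 CPM in 20-day Smurfs, where M-4 and 1d-e were high (log2FC −2.17, edgeR adjusted p = 0.104). Of 10 small heat shock protein genes 1 rose (8.56% of all genes tested did). This was l(2)efl, with 73.4 to 189 CPM in 40-day Smurfs and 56.6, 46.8, 51.1 and 34.2 CPM in 20-day Smurfs (log2FC 1.13, edgeR adjusted p = 0.0234), and it also rose in non-Smurfs (log2FC 0.94, edgeR adjusted p = 0.00494). Its call in Smurfs ended without M-4, 1d-d or 1d-f (edgeR adjusted p = 0.0541, 0.0804 and 0.0567), when no gene of the list was called higher. Hsp27 fell (log2FC −0.44) and was called in 3 of 10 leave-one-out fits. In the unfolded protein response 1 of 13 genes rose, crc, the ATF4 transcription factor (log2FC 0.27), again a share near that of all genes.

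The genes that fell included genes of nuclear functions, with small differences. Of 40 DNA replication genes 14 fell and none rose (median log2FC −0.22), and 38 had a negative log2FC. Cdc45, part of the replicative helicase on chromosome X (1028291 to 1030556), had 131 to 154 CPM in 40-day Smurfs (median 147) and 180, 189, 171 and 178 CPM in 20-day Smurfs. All 40-day samples were lower than all 20-day samples (log2FC −0.34 ± 0.06, edgeR adjusted p = 0.0125), and the call ended without 1d-d alone of the 10 samples (adjusted p = 0.0517). Cdc6, a loading factor of the helicase, fell with a log2FC of −0.35 and geminin, an inhibitor of that loading, with −0.44. In cell cycle and mitosis 10 of 43 fell and none rose (median −0.21), among them Rbf of the retinoblastoma family (−0.30), the kinesin ncd (−0.36) and cid, the centromeric histone (−0.57). In DNA repair 2 of 44 fell (median −0.14), a share below the 5.58% of all genes, with 13 without 1d-q and 0 without M-4, 5h-c8, 1d-d, 1d-f or 1d-r.

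Several chromatin genes also fell. The study named 10 genes of histone methylation and 9 of histone acetylation for old Smurfs from these same samples, so their direction is no independent evidence. It used DESeq2, while the calls given next are those of edgeR. Of the 10, 5 fell (median log2FC −0.24): Dpy-30L1 (−0.46), esc of Polycomb complex 2 (−0.35), CoRest (−0.28), trr, an H3K4 methyltransferase (−0.23) and its partner Lpt (−0.22), while E(z) (−0.17, edgeR adjusted p = 0.0966) and Su(z)12 (−0.25, edgeR adjusted p = 0.0512) were not called. Of the 9, 4 fell (median −0.29), namely Brd8 of the Tip60 complex (−0.36), Spt20 of SAGA (−0.34), the H4 acetyltransferase mof (−0.32) and the deacetylase HDAC1 (−0.20). The study also named Chro, which fell (−0.21), and E2f2, which was not called (−0.19, edgeR adjusted p = 0.0924). It named Mtor beside Chro, but that entry matched no gene here. Brd8 had 30.7 to 39.7 CPM in 40-day Smurfs and 44.2, 46.8, 44.6 and 46.0 CPM in 20-day Smurfs, without overlap. Of 33 Polycomb and Trithorax genes, a list that also holds esc and trr, 6 fell (median −0.18), and of 19 heterochromatin genes 2 fell, Su(var)3-7 (−0.26) and HP1c (−0.37).

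Genes of transcription and RNA processing fell in part. Of 30 general transcription factor genes 11 fell (median −0.18), including Taf6 (−0.24) and Taf12 (−0.25). Of 43 spliceosome genes 7 fell (median −0.12), including Srp54 (−0.24), Cdc5 (−0.25) and SmB (−0.45). Lists added after the values of the genes were seen gave 7 of 21 nucleoporins lower, Nup35 among them (−0.49), 5 of 24 Mediator subunits, MED19 (−0.31) and MED4 (−0.40) among them, and 4 of 10 Integrator subunits, IntS2 among them (−0.26). None of these genes rose. MED19 had 82.6 to 101 CPM in 40-day Smurfs and 113, 114, 109 and 113 CPM in 20-day Smurfs, and lost its call without 1d-d alone (edgeR adjusted p = 0.0633). Of 24 germline markers 5 fell (median −0.13), including png, a kinase of egg activation (−0.56), and swa, which localises bicoid RNA (−0.32). They summed to 4790 to 6510 CPM in 40-day Smurfs and 5510 to 5920 CPM in 20-day Smurfs, and the part of the germline in the nuclear results was not tested.

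**Figure D4:**
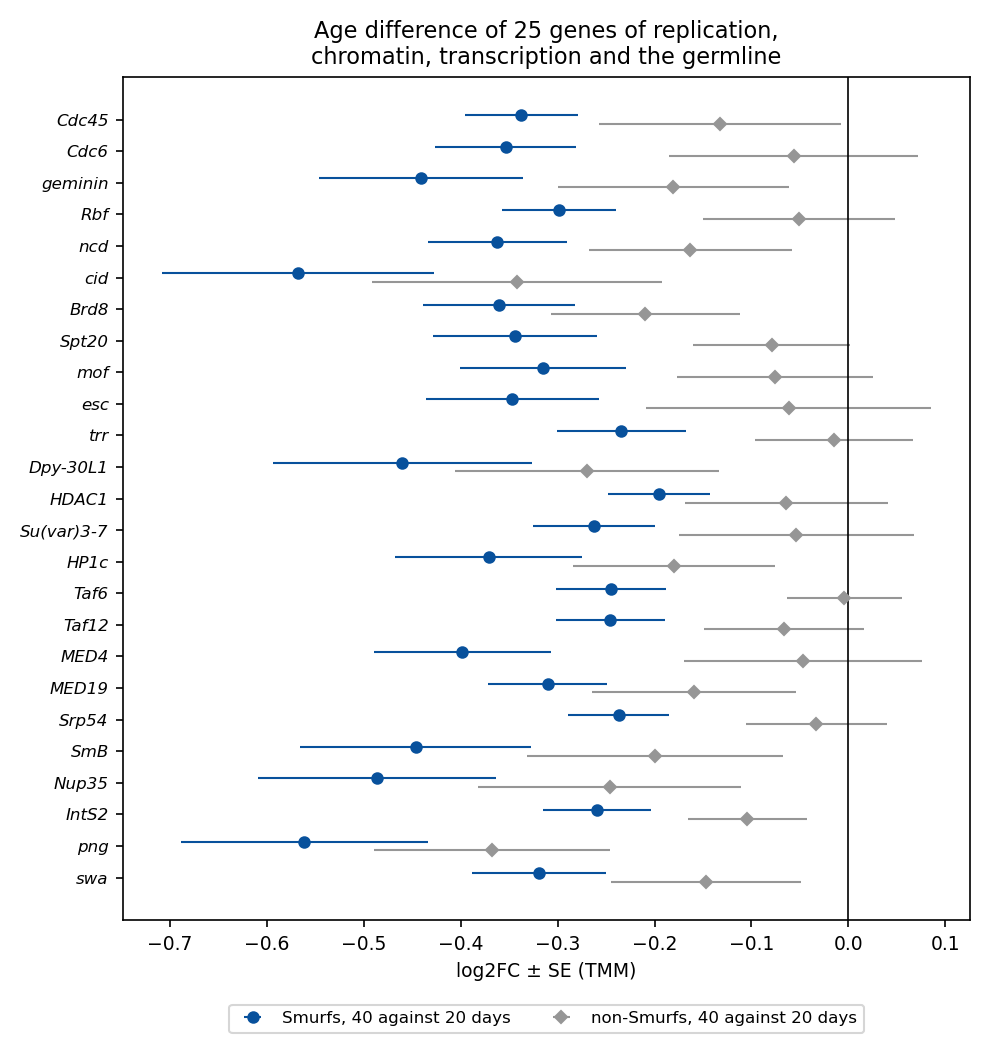
log2FC of 40 against 20 days (horizontal, TMM scale) for 25 genes of replication, chromatin, transcription and the germline, with Smurfs as dark circles above non-Smurfs as grey diamonds and bars of 1 SE. All 25 circles lie left of 0, from −0.57 (cid) to −0.20 (HDAC1), and the diamonds lie nearer to 0. The genes shown were chosen among those called lower in Smurfs, so the side of the circles was fixed by that choice. It did not act on the diamonds, so circles and diamonds are not an even comparison, and the interaction test called none of these 25 genes.

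These decreases depended on the settings. After RLE scaling the genes that fell numbered 12 in DNA replication, 6 in cell cycle and mitosis, 1 in histone methylation, 3 in histone acetylation, 2 in the Polycomb and Trithorax groups, where 1 gene rose, 7 in general transcription factors, 4 in the spliceosome, 4 in nucleoporins, 3 in Mediator and 2 in Integrator. Without the 5-hour samples they numbered 2 in DNA replication, 1 in general transcription factors, 1 in Mediator, 1 in the germline list and 0 in the other nuclear lists. Without the 20-day sample 1d-d or without 5h-c7, 5h-c8 and 1d-p none of these lists had a call. Without M-4 they had 2 in DNA replication, 2 in cell cycle, 1 in the spliceosome, 1 in Mediator and 0 in the others, while without the 40-day sample 1d-q DNA replication had 26, cell cycle 32, the Polycomb and Trithorax groups 20 and histone methylation 9. The median log2FC of each list was negative after RLE scaling, without the 5-hour samples and without 5h-c7, 5h-c8 and 1d-p, where it was −0.19 for DNA replication. By DESeq2, which the study used, more genes fell in most lists, with 16 in DNA replication, 11 in cell cycle and 12 in general transcription factors. Histone methylation had 8 of 10, histone acetylation 6 of 9, and the Polycomb and Trithorax groups 9, where 1 gene rose. The spliceosome had 8 and Mediator 6, while nucleoporins (7) and Integrator (4) had the same counts as by edgeR.

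**Figure D5:**
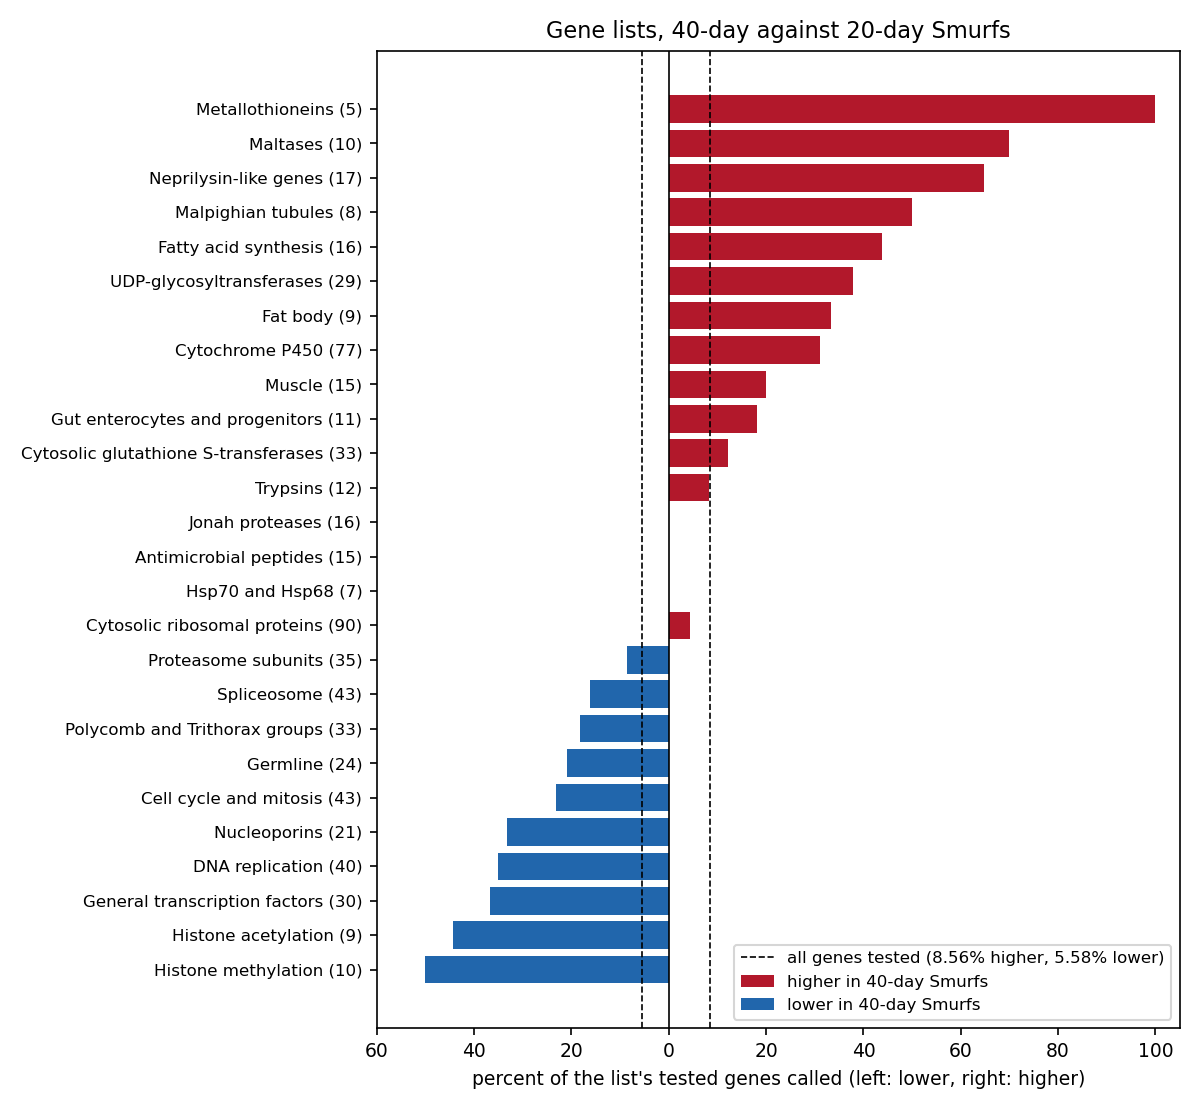
Percent of the tested genes of 26 lists called higher (right, red) and lower (left, blue) in 40-day against 20-day Smurfs at an edgeR adjusted p below 0.05, with the number tested in parentheses and dashed lines at the shares of all genes (8.56% higher and 5.58% lower). The lists shown are a choice, and none of them has calls on both sides. Lists that do were left out, such as JAK-STAT and Turandots (4 higher, 2 lower) and Toll and Imd signalling (3 higher, 1 lower). The lists of metallothioneins, maltases, neprilysin-like genes, UDP-glycosyltransferases and nucleoporins were added after values were seen.

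Genes of protein synthesis and energy supply were mostly not called by edgeR, beside 8.56% of all genes tested that rose and 5.58% that fell. Of 90 cytosolic ribosomal protein genes 4 rose and none fell (median log2FC 0.01), RpL15 with 1033 to 1144 CPM in 40-day Smurfs and 893, 906, 903 and 885 CPM in 20-day Smurfs among them (log2FC 0.24). Of 34 ribosome biogenesis genes 1 fell (median −0.05). Of 35 proteasome genes 3 fell (median −0.10), and none after RLE scaling. Of 64 nuclear genes of the respiratory chain 2 rose, COX7C (0.36) and ND-23 (0.27), and 23 did without the 40-day sample 1d-q, as did 19 of the ribosomal protein genes. Without M-16, 8 ribosomal protein genes were called lower, and without M-4, 1d-d, 1d-e or 1d-f no ribosomal protein gene was called. Of 11 mitochondrial genes of the chain 1 rose by edgeR, mt:ND3 (0.78), while 8 had an unadjusted p below 0.05 and DESeq2 called 6 higher. All 11 had a positive log2FC (median 0.42), in data where the 40-day sample 1d-q had a raised mitochondrial share. For mt:ND3, 1d-q had 58.7 CPM, within the 49.8 to 87.7 CPM of the 40-day Smurfs. Its call held without 1d-q (edgeR adjusted p = 0.0176) and ended without M-4 or 1d-d (edgeR adjusted p = 0.0636 and 0.0777).

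Among the remaining lists were markers of muscle and of the Malpighian tubules. Of 15 muscle markers 3 rose and none fell (median log2FC 0.21), including Mlc2, a myosin light chain, with 376 to 503 CPM in 40-day Smurfs and 260, 264, 309 and 353 CPM in 20-day Smurfs (log2FC 0.52, edgeR adjusted p = 0.0167), and wupA, troponin I (0.46). The muscle count was 1 without M-4, and 0 without 1d-d or with 1-day samples only. Mlc2 also rose in non-Smurfs (0.58, edgeR adjusted p = 0.0125). Of 8 markers of the Malpighian tubules, the insect kidney, 4 rose (median 0.43), with CapaR, the receptor of the Capa peptides, at 0.83, and none did without M-4, without 1d-d or without 5h-c7, 5h-c8 and 1d-p. Of 24 odorant-binding protein genes, a list added after the values were seen, 5 rose (median 0.76), Obp56a with a log2FC of 1.12, none without 1d-d and 11 without 1d-q. No marker of 16 for neurons (median 0.05) or of 15 for eye photoreceptors (0.08) was called by edgeR or DESeq2, with 1 and 0 at an unadjusted p below 0.05. Chosen after their values were seen, the receptor Dh31-R (1.01), the nutrient-linked peptide CCHa2 (1.24) and the clock genes tim (0.39) and Clk (0.74) were higher in 40-day Smurfs in all 10 leave-one-out fits, and tim rose in non-Smurfs too (0.68, edgeR adjusted p = 0.0462). CCHa2 had 22.9 to 31.9 CPM in 40-day Smurfs and 8.21, 11.0, 15.8 and 11.4 CPM in 20-day Smurfs, without overlap. Besides Scp1, the genes lower in all 10 were CG11413 (−2.20), CG13532 (−0.68), CG3842 (−0.38), BTBD9 (−0.38) and the ubiquitin ligase Hecw (−0.31).

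The same ages were compared in non-Smurfs, on samples that the Smurf comparison does not use. Of 10053 genes tested, 103 rose (1.02%) and 26 fell (0.259%), and 42 of these were also called in Smurfs, all in the same direction, which is 2.92% of the Smurf calls and 32.6% of the non-Smurf calls. The count was 23 without the 20-day non-Smurf 1d-b, 28 without 1d-c, 33 without 1d-a and 48 without M-1, and 43 without the 40-day non-Smurf 5h-c5, 56 without 1d-n and 435 without M-13. Among the genes that rose in Smurfs, 738 of 864 tested (85.4%) had a positive log2FC in non-Smurfs too, with a median of 0.24, and among those that fell, 529 of 566 (93.5%) had a negative one, with a median of −0.12. Over all genes tested in both, 7078 of 9983 (70.9%) had the same sign. A fit over both kinds of flies tested whether the age difference itself differed, and called 2 of 10318 genes (0.0194%), while 1323 had an unadjusted p below 0.05 and DESeq2 called 261.

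The 2 genes of this interaction had no role that could be given here. CG11672, on chromosome 3R (8289395 to 8290578), had 28.5 to 50.4 CPM in 40-day Smurfs (median 34.6) and 9.29, 10.0, 11.7 and 7.39 CPM in 20-day Smurfs, against 33.1 to 42.9 CPM in 40-day non-Smurfs and 20.8 to 37.5 CPM in 20-day non-Smurfs. All 20-day Smurfs were below all samples of the other 3 groups (interaction 1.47 ± 0.24 on the log2 scale, edgeR adjusted p = 0.0461). CG6901, which overlaps Sulf1, had 1.37 to 3.11 CPM in 40-day Smurfs and 0.456, 0.287, 0.808 and 0.739 CPM in 20-day Smurfs, against 0.865 to 1.78 CPM in 40-day non-Smurfs and 1.71 to 2.40 CPM in 20-day non-Smurfs (interaction 2.29 ± 0.38, edgeR adjusted p = 0.0461). The count of interaction genes was 32 with RLE scaling, 0 without 5h-c7, 5h-c8 and 1d-p (690 with an unadjusted p below 0.05), and from 0 to 102 when 1 sample was left out, with 102 without the 40-day Smurf 1d-r and 0 without any 1 of the non-Smurfs M-13, 5h-c5, 1d-m, 1d-n, M-1, 1d-a and 1d-b (1056 to 1317 with an unadjusted p below 0.05). An age difference called in Smurfs alone is therefore not shown to be absent in non-Smurfs.

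The called genes were placed relative to non-Smurfs of the same ages. Distances were taken on log2(CPM + 1) between a Smurf group mean and the middle of the 40-day and 20-day non-Smurf means. They are a description only, because the 40-day and 20-day Smurf values both entered the choice of genes. That choice favours extreme means at either age and a 30-day mean between them. Among the 872 genes that rose, 40-day Smurfs were closer to non-Smurfs for 673 (77.2%), with a median distance of 0.20 for 40-day Smurfs and 0.52 for 20-day Smurfs, and the 20-day Smurf mean was below all other 5 group means for 713 while the 40-day Smurf mean was above all others for 507. Among the 568 genes that fell, 40-day Smurfs were closer for 247 (43.5%), with a median distance of 0.14 for 40-day Smurfs and 0.12 for 20-day Smurfs, and the 40-day Smurf mean was below all others for 516 while the 20-day Smurf mean was above all others for 418. Over all genes tested the share closer at 40 days was 53.6%, with 0.11 for both ages. The 20-day Smurf mean was below all others for 21.5% of all genes tested and above them for 17.8%. The 40-day Smurf mean was above all others for 21.5% and below them for 24%. The mean of the 30-day Smurfs lay between the 2 other ages for 807 of the 872 and 560 of the 568, against 59.9% of all genes tested. It was nearer to 20 days for 734 of the genes that rose (84.2%) and 361 of those that fell (63.6%), against 63.6% of all genes tested.

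Expression was also more variable among 40-day Smurfs. The median relative SD of a gene was 13.6% in 40-day Smurfs (n = 6) and 7.59% in 20-day Smurfs (n = 4), and among 1-day samples alone 14.1% and 7.04% (n = 3 each), with 76.4% of 10182 genes more variable at 40 days. Non-Smurfs collected at the same 1-day time had medians of 12.4% at 40 days and 7.83% at 20 days (n = 3 each). With 3 samples a group these medians are given without a test.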

How the data were processed

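RNA-Seq was performed on pools of whole flies, and the deposited table holds raw read counts per gene, which the authors made from their reads. Libraries were made with a stranded mRNA kit and sequenced in pairs, and per the study's methods FastQC, HISAT2 on the genome BDGP6.95 and featureCounts were used. The tools' versions and the strand setting of the counting were not given in the sources used here, and reads counted without strand would mix a gene with its overlapping neighbours. All 32 columns were mapped to samples by their titles, and 17737 genes were listed. Names and positions were joined by gene ID from the BDGP6.54 annotation, which lacked 138 of the listed genes. Of the entries of the gene lists, 16 matched no gene.

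Counts were analysed with edgeR 4.0.16 in R 4.3.3 (filterByExpr, TMM, quasi-likelihood test, Benjamini-Hochberg adjustment over all genes tested, called at 0.05), on the 10 Smurf samples, on the 10 non-Smurf samples of the same ages, and on these 20 samples with an interaction of age and Smurfness. PCA used the 1000 most variable genes after the vst of DESeq2 1.42.0. The scripts were tested on simulated data. Alternatives were RLE size factors, DESeq2, other filters, other sets of samples, collection time as a term and leaving out each sample in turn. Total counts lay between 12164198 and 20753029 in the 10 Smurf samples. The labels do not say that samples of a group came from separate cultures, so p-values measure the spread between these samples, which may be partly technical. Tables were made with Python 3.11.15, pandas 2.3.3 and matplotlib 3.10.9.

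The samples and gene lists were chosen with earlier results of these data known. The rule for naming genes took the 12 largest increases and the 12 largest decreases among called genes whose mean log2 CPM reached 2, the highest and lowest member and the 2 called members of smallest p of each list, and genes that the study named for old Smurfs. The text gives those that bear on a group it describes and says where other genes or lists were chosen after their values were seen.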

Additional observations from a re-analysis of the deposited data

Results flagged for a closer look

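Samples that lay far from the rest of their group were sought in 250 groups of values (Dixon's test at 95%) and found in 23, where chance gives about 1 in 20. The 40-day Smurf 1d-r was the highest sample of its group for CecA1 (96.5 CPM, next 30.6), upd3 (18.5, next 7.71), Hsp70Bb (9.59, next 2.48), Hsp68 (33.0, next 12.4) and l(2)efl (189, next 94.3). It was also the highest for CG5909 (14.1 CPM, next 7.56), CG9452 (14.4, next 7.98), Cyp6a8 (13.7, next 5.90) and Vha100-4 (15.2, next 12). The 40-day Smurf 5h-c8 was the highest for Cyp4ac2 (24.9 CPM, next 12.2), Ilp6 (33.5, next 24.1), Oatp74D (42.4, next 33.6) and v (73.3, next 46.2). Among 40-day Smurfs, M-16 stood apart for TotM (244 CPM, next 126), 1d-p for eloF (110 CPM, next 96.7) and 1d-q for Ugt304A1 (11.6 CPM, next 9.34) and for the share of counts in mitochondrial genes (9.59%, next 5.85%).

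Among 20-day Smurfs, M-4 was the highest for TotC (46.2 CPM, next 17.4), 1d-e for CecA1 (115 CPM, next 67.6) and ND-23 (90.4 CPM, next 77.1), and 1d-d for snRNA:U12 (22.4 CPM, next 17.7) and HDAC1 (258 CPM, next 239). For Ddc, 1d-f was the lowest (60.9 CPM, next 90.8).

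For 2 genes the log2FC of 40 against 20 days in Smurfs exceeded that in non-Smurfs, by 1.47 ± 0.24 on the log2 scale for CG11672 and by 2.29 ± 0.38 for CG6901 (SE, edgeR adjusted p = 0.0461 each).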

How the results depend on the processing

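Among 122 genes of the text followed through the alternatives, which do not include raptor, Ldh and E2f2, no log2FC reversed. Most of these genes were chosen by log2FC and p from the same samples, so this is no independent evidence of direction. Medians of some lists changed sign. Without 5h-c7, 5h-c8 and 1d-p the median log2FC was −3.16 for chorion genes, −3.81 for vitelline membrane genes, −2.18 for follicle cell markers and −0.02 for Jonah genes, which were positive with all 10 samples, and the Jonah median was also negative with 1-day samples only (−0.07) and with collection time as a term (−0.06). The Bomanin median was −0.21 without the 5-hour samples, against 0.14, and it and the medians of a few further lists that lay within 0.3 of 0 changed sign in other reduced sets. For 40-day against 20-day Smurfs the number of called genes was 483 without the 5-hour samples, 25 with 1-day samples only, 484 without the mixed samples, 246 with collection time as a term and, in a setting chosen after seeing the data, 172 without 5h-c7, 5h-c8 and 1d-p, against 1440 with all 10 samples. Leaving out 1 sample gave 126 (without the 20-day 1d-d) to 2585 (without the 40-day 1d-q). RLE size factors (1294), DESeq2 (2012), no filter (1143), at least 10 counts in every sample (1230) and all 16 Smurf samples (1821) stayed within 1.5 times the count, as did the fit of all 32 samples (2153). Across these 122 genes of the text, 1849 values kept their side of the threshold, 684 lost the call and 19 gained it. For 40-day against 20-day non-Smurfs the count was 482 by DESeq2 and 59 without the 5-hour samples, against 129, and 23 to 435 with 1 sample left out. For the interaction it was 32 with RLE, 261 by DESeq2, 25 without a filter, 1 without the 5-hour samples, 4 with 1-day samples only, 27 with all 32 samples and 0 without 5h-c7, 5h-c8 and 1d-p (690 genes at an unadjusted p below 0.05, DESeq2 not run on that set), against 2, and 0 to 102 with 1 sample left out. The difference of PC1 was 22.8 on log2 CPM (exact permutation test, p = 0.133), where PC2 separated the ages (exact permutation test, p = 0.00952), and 17.9 to 23.4 with 1 sample left out. The causes of these changes were not tested, beyond the smaller number of samples in the reduced sets. No paired analysis was possible because the 2 ages share no replicate numbers in the labels. Depth limits the genes of low level, such as CG6901 and Ugt37B1, whose values in all 20-day Smurfs were below 1 CPM and so rest on few reads per library.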
